A study of Mus musculus with 10 samples.

Results

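The genes of MHC class II antigen presentation were described in sorted fractions of myofibroblastic cancer-associated fibroblasts (myCAFs, contractile matrix-producing cells of the tumour stroma) with and without the surface protein CD90, the product of Thy1. The 7 genes, chosen by name, were H2-Aa, H2-Ab1 and H2-Eb1 (the classical chains), Cd74 (the invariant chain), H2-DMa and H2-DMb1 (the peptide exchange factor) and Ciita (the transactivator). They are 7 of 48471 genes summed from the deposited transcript values, and all 7 were among the 15378 genes that passed the filter on low counts. The host mice were male C57BL/6J, and the pancreatic ductal adenocarcinomas grew from KPC T-LOH organoids transplanted into the pancreas. The CD90- and the CD90+ fraction each had 5 libraries, and every tumour pool gave 1 library to each fraction. Pools 1 to 5 held 4, 1, 2, 3 and 1 animals by their sample titles, 11 in all, whereas the design text counts 5 mice, so n is given in pools. Both fractions came from the same transplanted tumours, and the gate that defined a myCAF apart from CD90 is not given in the sources used here.

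MHC class II molecules carry peptides from endosomes to the cell surface, where CD4+ T cells read them. An alpha and a beta chain pair in the endoplasmic reticulum around the invariant chain, proteases trim that chain down to a short peptide in the groove, and the H2-DM heterodimer exchanges this peptide for another. Professional antigen-presenting cells express the set constantly, other cells switch it on through CIITA after interferon-gamma, and a class II-positive fibroblast state in pancreatic tumours is known as the antigen-presenting CAF.

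Class II messenger RNA was scarce in both fractions. Summed over the 7 genes, CD90- libraries 1 to 5 held 34.9, 13.3, 19.3, 22.7 and 24.4 CPM (reads scaled to a common library size). The CD90+ libraries of the same pools held 27.7, 19.9, 22.9, 13.8 and 21.8 CPM. The sum was higher in the CD90- fraction in 3 of 5 pools, and the groups overlapped. These sums rest on 213 to 1015 reads in CD90- and 222 to 1520 reads in CD90+ libraries.

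Of the 7 genes, Cd74 rose in the CD90- fraction, H2-DMb1 fell and the other 5 did not pass the test (edgeR quasi-likelihood test with the pool as a block, Benjamini-Hochberg adjusted p under 0.05 over all genes tested). The same test called 12.9% of all genes, 5.83% higher and 7.05% lower. CPM of the fractions overlapped for all 7 genes, whereas they did not overlap for 7.93% of all genes tested. Among the 5253 genes as abundant as the class II genes it called 6.64%. The standard error of the log2 fold had a median of 0.59 over those genes, against 0.38 over all genes tested. All log2 folds are CD90- over CD90+, and their median over all genes tested was 0.04. In these bulk libraries fewer cells of a type and less RNA per cell cannot be told apart.

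**Figure D1:**
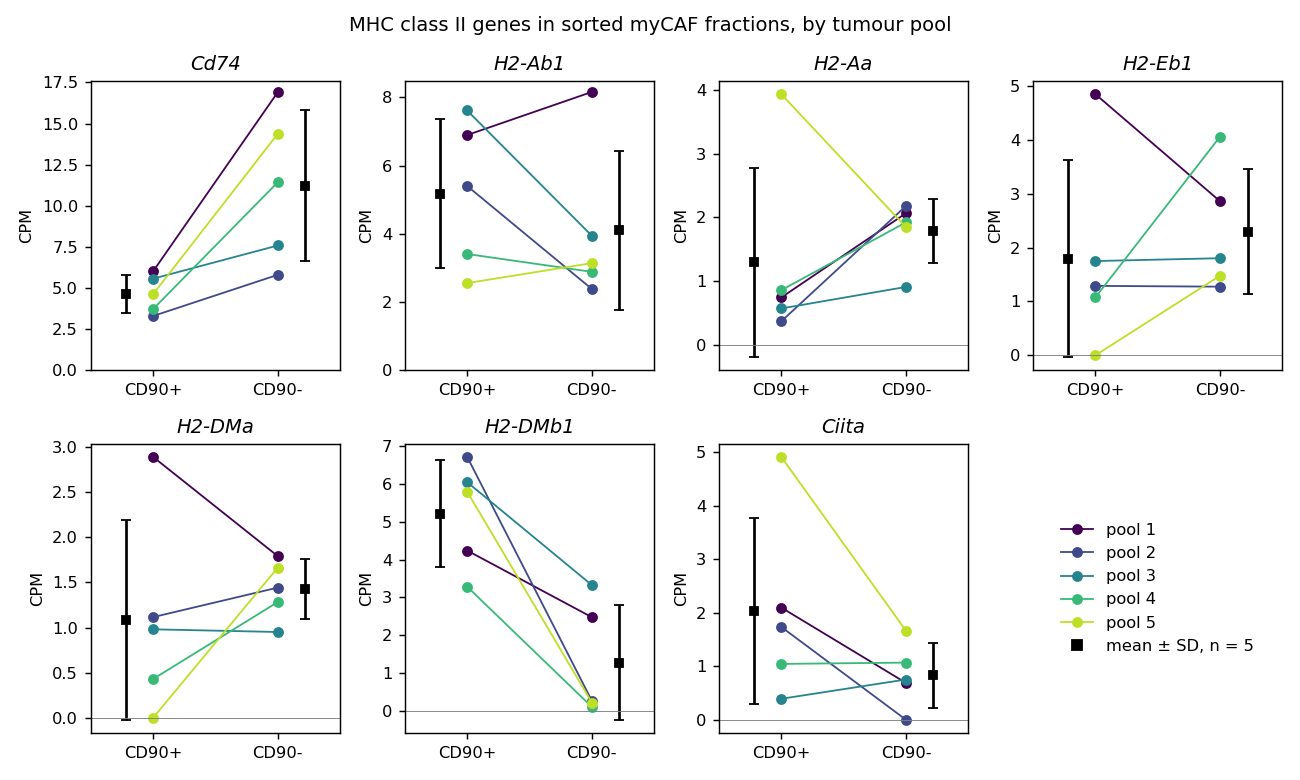
Scaled CPM (y axis) of each class II gene in the CD90+ and CD90- library of each pool, joined by a line per pool, with black squares for the mean ± SD of 5 libraries. Cd74 lines rise and H2-DMb1 lines fall in all 5 pools, whereas lines of the other genes cross.

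Promoters of class II genes are known for a shared module, in which an X box bound by RFX lies upstream of a Y box bound by NF-Y. RefSeq sequences of GRCm38.p6 are shown for the genes with 1 promoter entry, so that the module can be compared between H2-DMb1, which fell, its close paralog H2-DMb2 and the classical chains. Each window runs from 130 to 24 bases before the start site, 5′ to 3′ on the gene's strand. Capitals mark the Y box letters GATTGG, on either strand (CCAATC on the other), and GATGATGCT (AGCATCATC), the longest run of letters that the promoters of H2-Eb1, H2-DMb1 and H2-DMb2 share. Entries matched for H2-Aa, H2-Eb1, H2-DMa (2 entries), H2-DMb1 and H2-DMb2. H2-Ab1 and Ciita had no entry.
H2-Aa, chr17:34287847-34287953, minus strand: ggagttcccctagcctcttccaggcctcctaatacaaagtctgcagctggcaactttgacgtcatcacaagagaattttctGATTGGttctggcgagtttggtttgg
H2-Eb1, chr17:34305737-34305843, plus strand: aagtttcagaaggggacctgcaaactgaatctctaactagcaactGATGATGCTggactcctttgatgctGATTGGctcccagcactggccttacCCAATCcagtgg
H2-DMb1, chr17:34153061-34153167, plus strand: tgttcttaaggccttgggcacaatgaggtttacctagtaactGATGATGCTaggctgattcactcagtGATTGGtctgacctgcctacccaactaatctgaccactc
H2-DMb2, chr17:34145119-34145225, plus strand: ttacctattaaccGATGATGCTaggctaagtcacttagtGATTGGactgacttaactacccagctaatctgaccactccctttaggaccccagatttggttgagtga

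The shared run began 25, 26 and 26 bases before the Y box letters in H2-Eb1, H2-DMb1 and H2-DMb2. The H2-Aa window held the Y box letters but not that run. The 2 H2-DMa entries, not shown, also lacked the run, and only 1 of them held the Y box letters. The run was read from the promoters of H2-Eb1, H2-DMb1 and H2-DMb2. Its absence therefore does not show that H2-Aa or H2-DMa lacks an X box. The Y box letters began 49 bases before the start site in H2-Aa, 60 in H2-Eb1, 62 in H2-DMb1 and 91 in H2-DMb2. Over all 32851 promoter sequences of 300 bases, 16.1% held the Y box letters, 0.274% the shared run and 0.0335% (11 sequences) both. The letters do not overlap each other, they were chosen after these sequences had been read, and a match is a description, not a bound site.

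Of the classical chains, H2-Aa and H2-Ab1 encode the alpha and beta chain of the peptide-binding molecule I-A, and H2-Eb1 the beta chain of I-E. The alpha chain of I-E is not among the genes described, and whether I-E forms in these mice was not examined. H2-Ab1 (ENSMUSG00000073421, chromosome 17) read 8.16, 2.38, 3.94, 2.88 and 3.14 CPM in CD90- libraries 1 to 5, and 6.89, 5.40, 7.62, 3.41 and 2.55 CPM in the CD90+ libraries. CD90- library 1 was the highest of all 10, the groups overlapped, and only pools 2 and 3 had a ratio whose counting interval lay below 1. The means were 4.10 ± 2.34 against 5.17 ± 2.18 CPM (SD, n = 5), and the fitted log2 fold was -0.37 (SE 0.40, edgeR adjusted p = 0.617). Its level therefore differed by less than the spread between pools.

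H2-Aa (ENSMUSG00000036594, chromosome 17) read 2.07, 2.18, 0.911, 1.92 and 1.85 CPM in CD90- and 0.745, 0.372, 0.573, 0.859 and 3.93 CPM in CD90+ libraries 1 to 5. In pools 1 to 4 it was higher in the CD90- library, with counting intervals above 1, and in pool 5 it was lower. CD90+ library 5 held 40 reads of H2-Aa, and it was the highest of the 10 libraries on the CPM scale. The means were 1.79 ± 0.505 against 1.30 ± 1.48 CPM (SD, n = 5), and the fitted log2 fold was 0.97 (SE 0.79, edgeR adjusted p = 0.495). Without pool 5 the log2 fold was 1.42 (SE 0.77, edgeR adjusted p = 0.301), so the gene did not pass the test there either.

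H2-Eb1 (ENSMUSG00000060586, chromosome 17) read 2.86, 1.27, 1.80, 4.06 and 1.48 CPM in CD90- and 4.84, 1.29, 1.75, 1.07 and 0 CPM in CD90+ libraries 1 to 5. The groups overlapped, pool 1 was lower, pools 2 and 3 were level within counting error and pool 4 was higher. In pool 5 the CD90- library held 40 reads and the CD90+ library 0, at least 5.01-fold higher against a floor of 3 reads in that library. The means were 2.29 ± 1.16 against 1.79 ± 1.82 CPM (SD, n = 5), and the log2 fold was 0.86 (SE 0.92, edgeR adjusted p = 0.613). It was -0.29 without pools 4 and 5, so its sign rests on those pools.

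Summed, the 3 classical chains came to 8.18 ± 2.97 CPM in CD90- and 8.26 ± 2.91 CPM in CD90+ libraries (SD, n = 5). The chains did not keep a fixed proportion: the H2-Ab1 to H2-Aa read ratio ran from 1.09 to 4.33 in CD90- and from 0.650 to 14.5 in CD90+ libraries. In pools 1 to 4 the ratio was lower in the CD90- library, and in pool 5 it was higher.

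Cd74 (ENSMUSG00000024610, chromosome 18) encodes the invariant chain, which blocks the groove, guides class II molecules to endosomes and also serves as a cell surface receptor for the cytokine MIF. It read 16.9, 5.80, 7.58, 11.4 and 14.4 CPM in CD90- libraries 1 to 5 and 6.01, 3.30, 5.56, 3.71 and 4.62 CPM in the CD90+ libraries. Every CD90- library was above its CD90+ partner, and the groups overlapped only because CD90- library 2 lay below CD90+ library 1. The means were 11.2 ± 4.61 against 4.64 ± 1.16 CPM (SD, n = 5), and the fitted log2 fold was 1.20 (SE 0.30, edgeR adjusted p = 0.0286), which is 2.30-fold higher.

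The size of the Cd74 difference varied between pools. Pools 1, 4 and 5 had CD90- over CD90+ ratios of 2.81 (95% counting interval 2.31 to 3.44), 3.08 (2.35 to 4.02) and 3.11 (2.30 to 4.31). Pools 2 and 3 had lower ratios, of 1.76 (1.40 to 2.22) and 1.36 (1.18 to 1.58). Of all genes tested, 13.5% were higher in the CD90- library of all 5 pools. The call was lost without pool 1, 4 or 5 (edgeR adjusted p = 0.147, 0.110 and 0.0684, log2 fold 1.06 to 1.13) and without pools 4 and 5 together (log2 fold 0.87, adjusted p = 0.234).

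**Figure D2:**
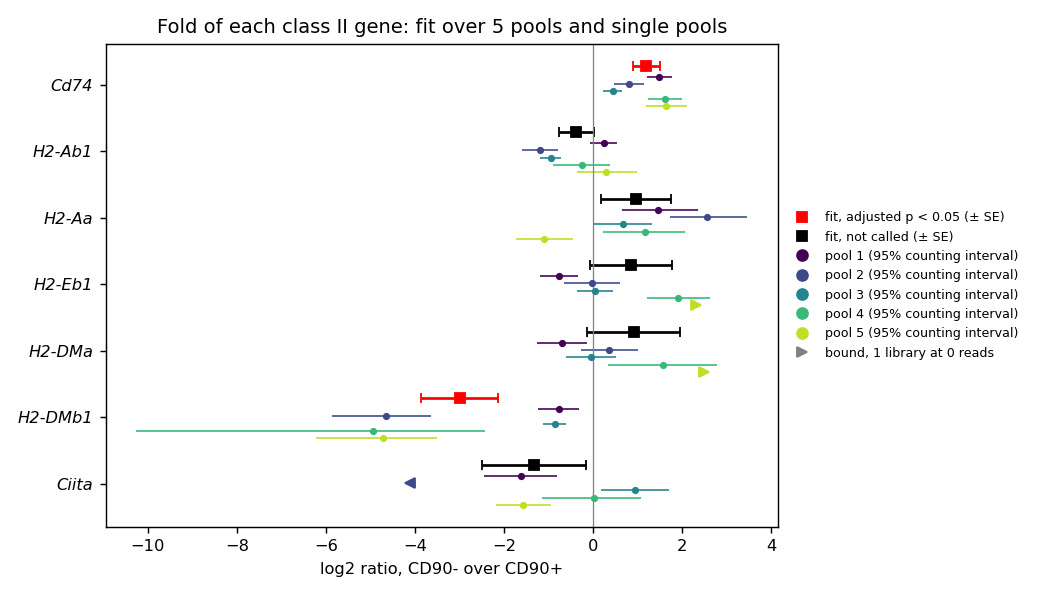
Log2 ratio of CD90- over CD90+ (x axis) for each class II gene: squares are the fit over 5 pools ± SE, in red where the adjusted p was under 0.05, and dots are single pools with 95% counting intervals; triangles are bounds where 1 library held no reads. All Cd74 dots lie right of 0 and all H2-DMb1 dots left of it, with H2-DMb1 in pools 2, 4 and 5 far below pools 1 and 3.

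Relative to the summed classical chains, Cd74 was also higher. Within a library the ratio of Cd74 reads to the summed reads of H2-Ab1, H2-Aa and H2-Eb1 needs no scaling between libraries. It was 1.29, 0.994, 1.14, 1.29 and 2.22 in CD90- libraries 1 to 5 and 0.481, 0.467, 0.560, 0.695 and 0.712 in the CD90+ libraries. The fractions did not overlap in this ratio, which was chosen after the values had been seen and was not tested. Cd74 accordingly made up 39.4% to 58.9% of the reads of the 7 genes in CD90- and 16.5% to 26.9% in CD90+ libraries.

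**Figure D3:**
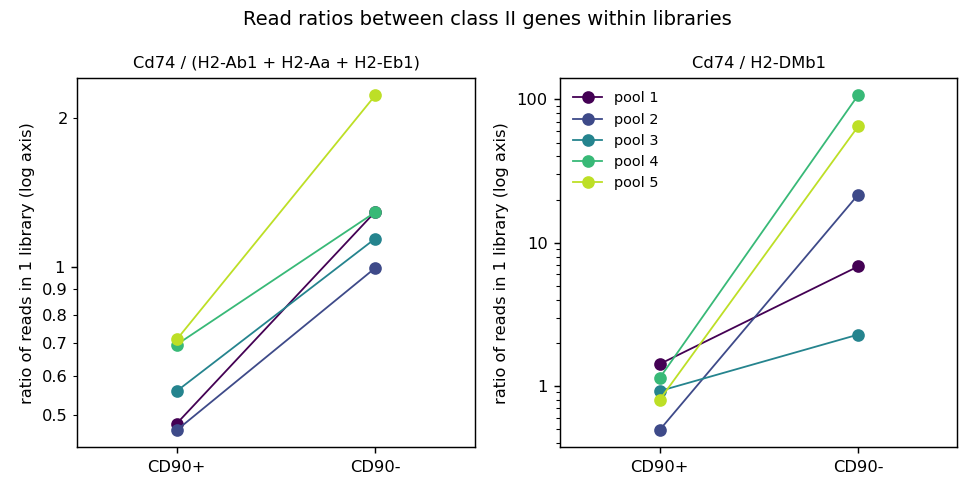
Ratio of Cd74 reads to those of the 3 classical chains (left) and of H2-DMb1 (right) within each library, on log axes, with a line per pool. Both ratios are higher in the CD90- library in all 5 pools, at 0.994 to 2.22 against 0.467 to 0.712 on the left.

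Markers of other cells moved with Cd74. The 12 macrophage markers summed to 25.0 to 98.4 CPM in CD90- and 11.5 to 24.4 CPM in CD90+ libraries and were higher in 5 of 5 pools. Of the 10 that were tested, Mrc1 (log2 fold 2.61, edgeR adjusted p = 0.00727) and Itgam (log2 fold 2.68, adjusted p = 0.0268) rose and 0 fell, and Adgre1 and Tyrobp were too low to test. The 10 cancer epithelial markers summed to 777 to 3009 CPM against 186 to 1630 CPM, also higher in 5 of 5 pools, with 7 called higher, led by Krt18, Krt8, Muc1 and Cldn18. Of 5 endothelial markers Tie1, Cdh5 and Pecam1 rose, whereas Kdr had a log2 fold of -0.70 (adjusted p = 0.0780), and their sum was higher in the CD90- library in only 3 of 5 pools. That sum reached 257 CPM in CD90- library 2, where Cd74 was lowest among the CD90- libraries. The part of these cells in the Cd74 difference was not tested.

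Markers of dedicated antigen-presenting cells were low in both fractions, as were the class II genes. The 8 dendritic cell markers summed to 3.95 to 13.0 CPM in CD90- and 3.24 to 16.4 CPM in CD90+ libraries, most of it Zbtb46 (6.64 ± 3.23 against 10.0 ± 4.58 CPM, SD, n = 5; log2 fold -0.57, edgeR adjusted p = 0.305). Cd209a was at 0 in all 10 libraries, Xcr1 and Ccr7 in all CD90- and Flt3 in all CD90+ libraries, and Batf3, the other dendritic marker tested, had a log2 fold of 0.89 (adjusted p = 0.772). The 6 B cell markers summed to at most 1.38 CPM in any library, with Cr2 at 0 in all 10. Mesothelial markers, known from a proposed source of antigen-presenting CAFs, summed to 165 to 293 CPM in CD90- and 220 to 355 CPM in CD90+ libraries, and were lower in the CD90- library in 3 of 5 pools. Of 7 tested, 1 was called (Msln, log2 fold 1.40, edgeR adjusted p = 0.00774). Msln averaged 126 CPM of a mean list sum of 228 CPM in CD90- and 56.4 of 285 CPM in CD90+ libraries. The other 6 had log2 folds of -2.04 (Upk3b) to -1.02 (Muc16) and did not pass the test, with a list median of -1.51.

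**Figure D4:**
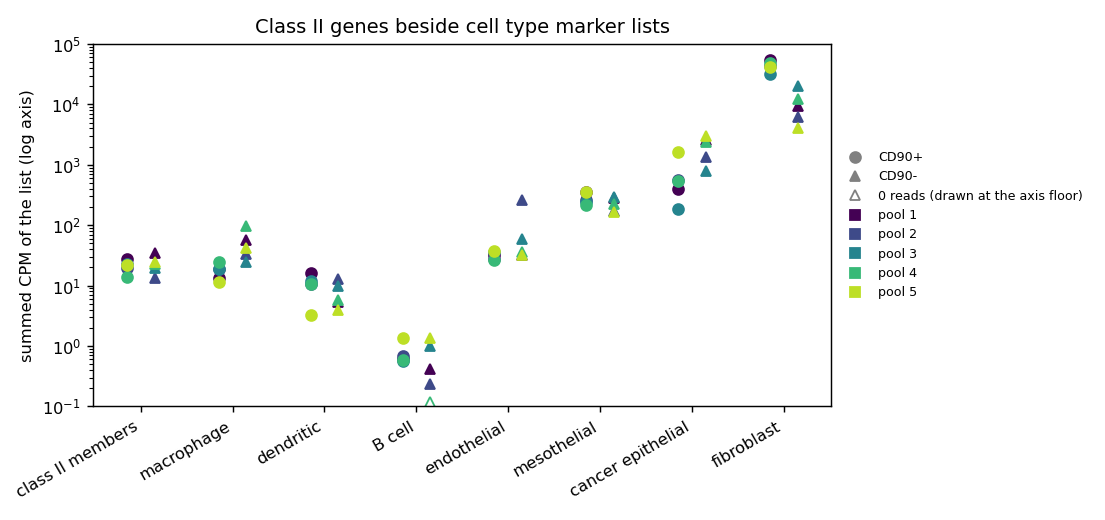
Summed CPM (log axis) of the class II genes and of 7 lists of cell type markers in each library, circles for CD90+ and triangles for CD90-, coloured by pool; an open triangle marks 0 reads. Macrophage and cancer epithelial sums are higher and fibroblast sums lower in the CD90- library of every pool, whereas the class II sums overlap.

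H2-DMa and H2-DMb1 encode the 2 chains of H2-DM, which edits the peptides in the groove, and a functional H2-DM needs both. H2-DMb1 (ENSMUSG00000079547, chromosome 17) read 2.48, 0.268, 3.33, 0.107 and 0.222 CPM in CD90- and 4.24, 6.71, 6.05, 3.28 and 5.80 CPM in CD90+ libraries 1 to 5. It was lower in the CD90- library of all 5 pools, as were 14.5% of all genes tested, and the groups overlapped only because CD90- library 3 exceeded CD90+ library 4. The means were 1.28 ± 1.51 against 5.22 ± 1.41 CPM (SD, n = 5), and the log2 fold was -2.99 (SE 0.87, edgeR adjusted p = 0.0499).

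The size of the H2-DMb1 difference varied widely between pools. In pools 1 and 3 the CD90+ library was higher by ratios of 1.71 (95% counting interval 1.24 to 2.36) and 1.82 (1.51 to 2.19). In pools 2 and 5 the ratios were 25.0 (12.5 to 58.6) and 26.2 (11.3 to 74.1), with 8 and 6 reads left in the CD90- libraries. CD90- library 4 held a single read against 107 reads in its partner, a ratio of 30.8 (5.40 to 1226). That library had the fewest reads on nuclear protein-coding genes, 3.71 M (mega).

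In the main fit the H2-DMb1 call stood at the edge of the threshold, and it held in 6 of 13 other settings. The adjusted p was 0.000244 with DESeq2 (log2 fold -3.06) and 0.000528 with edgeR and no filter on low counts. With edgeR without pool 3 it was 0.0354. The other settings lost the call. Without the pool block the log2 fold was -1.99 (edgeR adjusted p = 0.164), and limma-voom gave -1.87 (adjusted p = 0.0716). Leaving out pool 1, 2, 4 or 5 gave edgeR adjusted p values of 0.0625, 0.148, 0.140 and 0.120 with log2 folds of -3.73 to -2.44, and without pools 4 and 5 it was -1.91 (adjusted p = 0.295). Its transcripts shared 31.4% of their 31-base words with H2-DMb2, so the division of reads between these neighbours is uncertain. H2-DMb2 itself held 81 reads over 5 libraries, 62 of them in CD90+ library 2, so adding its reads to H2-DMb1 would raise the CD90+ side in that pool.

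Fibroblast markers moved with H2-DMb1. The 8 markers summed to 4052 to 20452 CPM in CD90- and 32394 to 53857 CPM in CD90+ libraries, with 7 of 8 called lower, led by Col1a2, Lum, Col3a1 and Col1a1. CD90- library 3, which kept the most H2-DMb1 of its fraction, also had the highest fibroblast sum of it, but CD90- library 4, with the lowest H2-DMb1, had the next highest sum (12244 CPM, against 9320 CPM in library 1). As a check of the sort, Thy1 read 8.47 ± 5.18 CPM in CD90- and 89.1 ± 29.5 CPM in CD90+ libraries (SD, n = 5), and its log2 fold was -3.50 (edgeR adjusted p = 0.00561). The part of these markers in the H2-DMb1 difference was not tested.

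H2-DMa (ENSMUSG00000037649, chromosome 17), the partner chain, read 1.79, 1.44, 0.950, 1.28 and 1.66 CPM in CD90- and 2.89, 1.11, 0.980, 0.430 and 0 CPM in CD90+ libraries 1 to 5. It did not follow H2-DMb1: pool 1 was lower, pools 2 and 3 were level within counting error, pool 4 was higher, and pool 5 was at least 5.64-fold higher against the floor of 3 reads. The means were 1.43 ± 0.330 against 1.08 ± 1.10 CPM (SD, n = 5), and the fitted log2 fold was 0.91 (SE 1.04, edgeR adjusted p = 0.638). Without pools 4 and 5 it was -0.16. CD90+ library 5, at 0 for H2-DMa and H2-Eb1, had the fewest nuclear protein-coding reads of its fraction, 4.57 M.

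Ciita (ENSMUSG00000022504, chromosome 16) encodes the coactivator that docks on the RFX and NF-Y module and on which class II transcription depends. It read 0.688, 0, 0.752, 1.07 and 1.66 CPM in CD90- and 2.10, 1.73, 0.392, 1.04 and 4.91 CPM in CD90+ libraries 1 to 5. Pools 1 and 5 were lower in the CD90- library, pool 3 was higher by a ratio of 1.92, pool 4 was level, and pool 2 held 0 reads against 70, at least 17.2-fold lower. The means were 0.834 ± 0.605 against 2.04 ± 1.74 CPM (SD, n = 5), and the fitted log2 fold was -1.33 (SE 1.16, edgeR adjusted p = 0.529). The transactivator thus had a lower mean where Cd74 had a higher one, but only the Cd74 difference passed the test.

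Per unit of transcript length, in TPM rescaled over nuclear protein-coding transcripts, the order of the levels differed between the fractions. In CD90- libraries Cd74 led with 46.9 ± 19.5 TPM, followed by H2-Ab1 at 21.4 ± 13.5, H2-DMa at 15.9 ± 5.59, H2-Eb1 at 13.0 ± 4.56, H2-Aa at 10.8 ± 4.28, H2-DMb1 at 5.20 ± 5.63 and Ciita at 0.947 ± 0.709 TPM (SD, n = 5). In CD90+ libraries H2-Ab1 led with 24.1 ± 4.64 TPM, followed by Cd74 at 19.1 ± 5.54, H2-DMb1 at 18.5 ± 4.66, H2-Eb1 at 10.7 ± 11.6, H2-DMa at 10.2 ± 8.69, H2-Aa at 8.67 ± 11.2 and Ciita at 2.09 ± 1.84 TPM (SD, n = 5). All neighbours in the CD90+ order, and all in the CD90- order except Cd74 and H2-Ab1, differed by less than the larger SD of the pair. The TPM order also depends on the transcript models to which Salmon assigned the reads. Most H2-DMa reads were on non-coding models of 350 to 742 bases. By mean CPM in CD90- libraries, H2-DMa (1.43) lay below H2-Eb1 (2.29) and H2-Aa (1.79). Cd74, the most abundant of the set, stood above only 51.5% of the genes tested by mean log2 CPM, and H2-DMa, the scarcest, above 17.3%.

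The reads of 2 genes fell mostly on transcript models that encode no full chain. For H2-Eb1, 64.1% of 597 reads were assigned to retained-intron models, 16.6% to a nonsense-mediated decay model and 19.3% to coding models. Of 7830 nuclear protein-coding genes with an annotated retained-intron model and at least 100 reads, 98.5% had a smaller retained-intron share. The median share over those genes was 7.28%. For H2-DMa, 58.7% of 386 reads were on processed transcripts, 20.6% on a retained-intron model and 20.7% on coding models. The coding share was 91.1% for H2-Ab1, 98.3% for H2-Aa, 99.5% for Cd74, 99.0% for H2-DMb1 and 100% for Ciita. The levels of H2-Eb1 and H2-DMa are therefore mainly those of models other than the full coding transcript, as Salmon divided the reads.

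**Figure D5:**
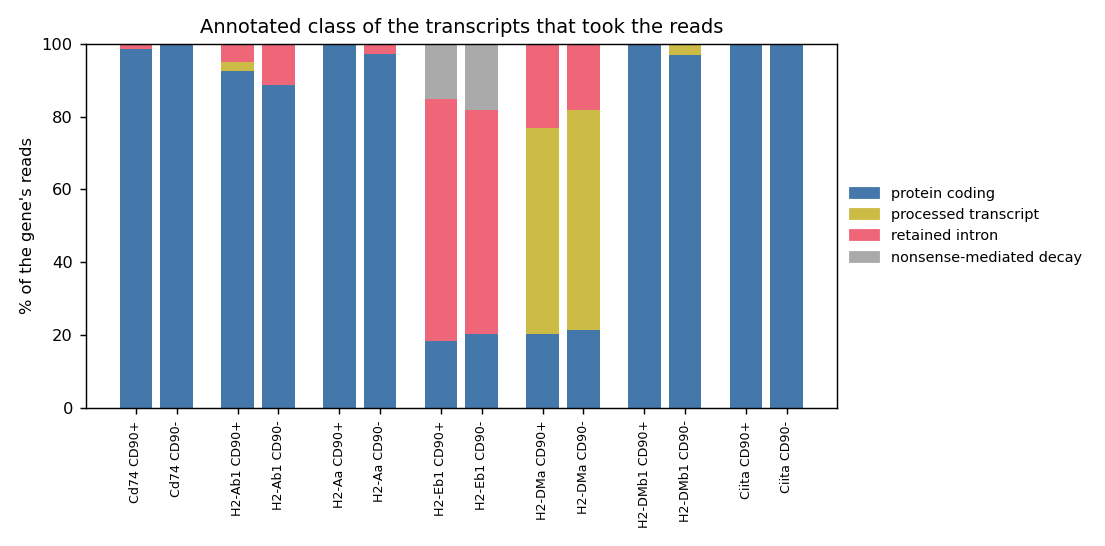
Share of each gene's reads (y axis, percent) assigned to each annotated class of transcript, summed over the 5 libraries of a fraction. Coding transcripts took nearly all reads of Cd74, H2-Aa, H2-DMb1 and Ciita in both fractions, and a minority of those of H2-Eb1 and H2-DMa.

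Cd74 is known in a short and a long form, the long one with an extra thyroglobulin type domain that inhibits cathepsin L. The short form, Cd74-201 with 215 codons, took 1944 of 2342 reads. The transcripts with 279 codons, Cd74-202 and Cd74-203, took 30.9%, 0%, 1.49%, 22.6% and 33.2% of the reads in CD90- libraries 1 to 5 and 10.2%, 36.2%, 2.44%, 4.22% and 0% in the CD90+ libraries. The long share varied as much within a fraction as between the fractions. The short form alone gave most of the reads in all 10 libraries.

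Ciita is known for alternative first exons used in dendritic cells, in B cells and after interferon-gamma. Its reads fell mostly on starts 9722 bases (Ciita-203), 8220 bases (Ciita-201) and 0 bases (Ciita-205) after the first annotated start, with 1.7 reads of CD90- library 1 on Ciita-208. Ciita-203 took 45, 48.5, 13.8, 31.8 and 50 reads in CD90+ libraries 1 to 5, which was 53.1% to 100% of the gene. In the CD90- fraction it took 6.5 and 10 reads in libraries 1 and 4 and 0 in the others. Ciita-201 took all 38 reads of CD90- library 3, and Ciita-205 took all 45 reads of CD90- library 5 and 0 in the other 9 libraries. A single start carried all reads in 3 of the 4 CD90- libraries that held any, and it was a different start in each.

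The class II genes did not vary as a block. Over 10 libraries, Pearson's r of log2 CPM ran from -0.58 (Cd74 with H2-DMb1) to 0.94 (H2-Eb1 with H2-DMa) among the 21 pairs, with a median of -0.00 and 10 pairs above 0. H2-Eb1 and H2-DMa share their highest CD90+ value in library 1 and 0 reads in CD90+ library 5. Cd74 had r of 0.47 with H2-Aa, 0.43 with H2-DMa, 0.41 with H2-Eb1, 0.10 with H2-Ab1 and -0.07 with Ciita. Outside the set, the 6 genes most like Cd74 were Map3k9 (r = 0.97), Hpcal4 (0.97), Ly6e (0.93), Slc9a4 (0.93), Arhgap40 (0.93) and Sh3yl1 (0.92). These values are a description over 10 libraries that include the difference between the fractions, and the low counts limit them.

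Of the 29 other genes of the class II pathway, 22 were tested, 1 rose and 5 fell, with a median log2 fold of -0.08. The endosomal list, whose enzymes trim antigens and the invariant chain, held 4 of the 5 genes that fell, with a median log2 fold of -0.56 over 6 genes. Ifi30, the thiol reductase GILT, averaged 9.36 ± 6.15 against 16.8 ± 3.33 CPM (SD, n = 5; log2 fold -1.03, edgeR adjusted p = 0.0420). Ctsl, the protease cathepsin L, had a log2 fold of -0.62 (adjusted p = 0.0312), Lgmn, the asparaginyl endopeptidase, of -0.86 (adjusted p = 0.0338), and Ctsb, cathepsin B, of -0.50 (adjusted p = 0.0482). Ctss, cathepsin S, which trims the invariant chain in professional antigen-presenting cells, read 1.74 ± 1.34 against 0.275 ± 0.263 CPM (SD, n = 5) and did not pass the test (log2 fold 2.52, edgeR adjusted p = 0.220). These calls were lost in several settings: the pathway count was 0 without the pool block and from 0 to 6 when 1 pool was left out.

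Upstream of the class II genes, Ifngr1, the ligand-binding chain of the interferon-gamma receptor, rose (37.9 ± 10.7 against 23.0 ± 9.80 CPM, SD, n = 5; log2 fold 0.76, edgeR adjusted p = 0.0327). Of the 7 genes of the RFX and NF-Y complexes and Creb1, 0 were called by edgeR, with 0.44 for Nfya (adjusted p = 0.282) and -0.58 for Nfyb (adjusted p = 0.238) as the log2 folds with the smallest p.

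None of the 4 class II paralogs passed the filter. H2-DMb2 reached 1.54 CPM in CD90+ library 2 and at most 0.184 CPM elsewhere, H2-Oa held 1 read in all, and H2-Ob and H2-Eb2 held 0 in all 10 libraries. March1, a ubiquitin ligase that removes class II from the surface, held 22 reads, all in 3 CD90- libraries, and March8 had a log2 fold of 0.12 (edgeR adjusted p = 0.706). Of the costimulatory genes, Cd80 read 0.563 ± 0.462 against 1.80 ± 1.20 CPM (SD, n = 5; log2 fold -1.84, edgeR adjusted p = 0.206), and Cd86 and Cd40 held 21 and 26 reads in all.

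Of 9 other genes known from the antigen-presenting CAF state, 8 were tested, Clu and Ezr rose and 0 fell, with a median log2 fold of -0.79. DESeq2 called 2 higher and 2 lower, and the unfiltered edgeR fit 2 higher and 3 lower. Clu, the chaperone clusterin, averaged 3217 ± 1047 against 770.5 ± 615 CPM (SD, n = 5; log2 fold 2.25, edgeR adjusted p = 0.00282), and Ezr, the membrane linker ezrin, 794 ± 278 against 376 ± 82.1 CPM (SD, n = 5; log2 fold 1.02, edgeR adjusted p = 0.0370). Epithelial cells also express both genes, and the cancer epithelial markers given above were higher in the same libraries; their part in these differences was not tested. Slpi, Saa3, Nkain4 and Irf5 had log2 folds of -0.96, -1.66, -1.23 and -1.30 and did not pass the test.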

How the data were processed

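Per the submitters' processing notes, the authors ran Salmon 1.9.0 on GRCm39 (mm39) and deposited an estimated count and a TPM per transcript for each library. Its annotation release and strand setting: not given in the sources used here. Per the labels' protocols, a SMART-Seq stranded kit with PCR was used on 0.1 to 1.2 ng of RNA, so reads are not independent molecules, and counting intervals (Clopper-Pearson, 95%) and floors (3 reads per library) cover counting error only. Estimated counts were summed per gene by unversioned transcript identifier in GENCODE M21 (92.4% of 144584 transcripts matched) and rounded. Totals were 33.3 to 47.7 M in CD90- and 11.7 to 38.2 M in CD90+ libraries. Mitochondrial rRNA took 35.6% to 84.4% and 10.5% to 44.8% of the counts assigned to genes.

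Genes were tested with edgeR 4.0.16 (filterByExpr, TMM, robust quasi-likelihood fit, pool as a block, Benjamini-Hochberg adjustment over all genes tested, threshold 0.05). The pipeline was tested on simulated data. Standard errors follow from the F statistic. Deposited TPM were rescaled over nuclear protein-coding genes and used only for levels. Shared animal numbers in the titles pair the fractions. Deviations from the group means correlated within pools 1 to 5 by 0.06, 0.00, 0.46, 0.03 and 0.19. Replicates are tumour pools. Alternatives were limma-voom (limma 3.58.1), DESeq2 1.42.0, RLE and upper-quartile factors, no pool block, no filter, protein-coding genes only and pools left out.

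The genes and lists were chosen with earlier results of these data known. Named besides the 7 genes are Thy1, the paralogs, up to 4 called genes with the smallest p per list (up to 2 where none was called), and the 6 genes most like Cd74; Ctss, March8, Cd86, Cd40, March1, Slpi, Saa3, Nkain4, Irf5, Kdr, Upk3b, Muc16 and markers given as untested or at 0 were added after their values were seen. Values of some genes of the lists are not reported here.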

Additional observations from a re-analysis of the deposited data

Results flagged for a closer look

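In 3 of the 14 groups examined (7 genes in 2 fractions, 5 libraries each), the highest or lowest library stood apart by Dixon's criterion, which chance meets in about 1 of 20 groups. H2-Ab1 in CD90- library 1 was at 8.158 CPM, against 2.38 to 3.94 CPM in the other CD90- libraries. H2-Aa in CD90- library 3 was at 0.9107 CPM, against 1.847 to 2.179 CPM in the others. H2-Aa in CD90+ library 5 was at 3.93 CPM, against 0.3716 to 0.8595 CPM in the others.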

How the results depend on the processing

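The fit without the pool block called 965 genes, 1 class II gene (Cd74) and 0 other pathway genes, against 1980, 2 and 6 with the pairing. Leaving out 1 pool at a time called 675 to 2019 genes, 0 to 2 class II genes, 0 to 6 other pathway genes and 1 to 2 genes of the antigen-presenting CAF list. Without pools 4 and 5 the counts were 541, 0, 0 and 1, and the log2 folds of H2-Eb1 (-0.29) and H2-DMa (-0.16) turned negative. DESeq2 called 3452 genes and 4 of the CAF list (2 lower), the fit with no filter 5 of that list (3 lower), and limma-voom 1 class II gene. Over 13 settings Cd74 was called in 9 and H2-DMb1 in 6, each with 1 direction in all 13, and the other 5 class II genes in 0. The cause of these changes was not tested. Between 213 and 1520 class II reads per library limit every value.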
